A study of Saccharomyces cerevisiae with 16 samples.

Results

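The 10 histone genes described here are the 8 core genes HTA1, HTA2, HTB1, HTB2, HHT1, HHT2, HHF1 and HHF2 and the variant genes HTZ1 and CSE4 of budding yeast. They were taken by gene symbol, and all 10 were found among the 4073 genes measured. The 16 two-colour arrays formed 8 comparisons of 2 arrays each, with the dyes exchanged between the 2. Cells were of the W303 background and were either wild type or carried esa1-L254P::NatRMX4, a point allele of ESA1, which encodes the catalytic subunit of the NuA4 histone acetyltransferase. G1 cells were held with alpha factor for 1 h and then kept for 1 h with or without 0.05% methyl methanesulfonate (MMS), an alkylating agent. S phase cells were held with alpha factor for 2 h, washed, and released for 1 h into medium with or without 0.05% MMS. Within each phase, 2 comparisons set MMS against untreated cells of 1 strain and 2 set esa1-L254P against wild type at 1 treatment. The 4 RNA kinds of a phase were thus joined in a loop, and no array compared G1 with S phase RNA. The labels do not say how many cultures or clones stood behind the 2 arrays of a comparison, so p-values measure the spread between arrays, which may be technical.

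Each nucleosome holds a pair of each of H2A, H2B, H3 and H4. In budding yeast every core histone is encoded by a pair of genes, arranged as 4 divergent loci: HTA1 with HTB1 and HTA2 with HTB2 for H2A and H2B, and HHT1 with HHF1 and HHT2 with HHF2 for H3 and H4. Their transcription peaks as cells enter S phase, under SBF, MBF and Spt10 with Spt21, and is held down outside it by the HIR complex with Asf1 and Rtt106 at all of these loci but HTA2-HTB2. HTZ1 encodes H2A.Z, which the SWR1 complex places next to promoters and which NuA4 acetylates. CSE4 encodes the centromeric H3, the base of the kinetochore. Yeast histone messages are polyadenylated, and the labelled RNA was poly(A) selected and primed with oligo-dT.

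In the R64 gene table HTA1 (YDR225W) and HTB1 (YDR224C) neighbour each other on chromosome IV, HHT2 (YNL031C) and HHF2 (YNL030W) on XIV, and HTA2 (YBL003C) with HTB2 (YBL002W) and HHT1 (YBR010W) with HHF1 (YBR009C) on II. HTZ1 (YOL012C) lies on XV and CSE4 (YKL049C) on XI. The paired genes are close copies, and HHT1 with HHT2, and HHF1 with HHF2, encode the same protein. Probe sequences were not used here, so how far a probe also captured the message of the other copy is unknown, and differences between copies are uncertain.

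All values are log2 ratios of test over reference RNA, averaged over the 2 spots of a gene, with replicate 2 of each comparison turned in sign. A positive value means higher in MMS-treated or in esa1-L254P cells, if the deposited ratio is Cy5 over Cy3, which the sources used here do not state. Gene names rest on a row order that was rebuilt from the agreement of duplicate spots, which correlated at 0.677 to 0.948 over 2035 genes left out of that search. Genes were called in limma where the p, adjusted by Benjamini-Hochberg over all 4073 genes, was under 0.05. MAG1, the 3-methyladenine glycosylase gene used as a check of the treatment, rose in all 4 MMS comparisons, by 0.86 to 1.09. RNR3, a damage-induced ribonucleotide reductase gene, rose with MMS in S phase in wild type (1.22) and esa1-L254P (0.99) while in G1 it fell in wild type (-0.23, adjusted p = 0.0395) and was at 0.00 in esa1-L254P. ESA1 itself was higher in esa1-L254P in untreated G1 cells (0.68, adjusted p = 0.000448) and did not pass in the other 3 strain comparisons (0.25, 0.10 and 0.35). A point allele need not change the message, so this does not check the strain labels.

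None of the 8 core genes passed the test in any of the 8 comparisons in the reported fit. All genes were called there at 0.0737% (the strains in S phase with MMS) to 38.9% (MMS in wild-type S phase). With the replicate number, and so the dye orientation, as a block in the model, HHT2 passed with MMS in wild-type G1 cells. It also passed between the strains in untreated G1. All genes were called at 56.6% and 43.7% there. CSE4 rose 2.06-fold with MMS in wild-type G1 cells and stood 1.79-fold above wild type in untreated esa1-L254P G1 cells. It was lower in esa1-L254P in G1 with MMS and in untreated S phase, but both of these calls were lost when each phase was fitted alone. HTZ1 fell with MMS in esa1-L254P S phase cells, where 1 array carried most of the change. The plot of comparison means sets these side by side.

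**Figure D1:**
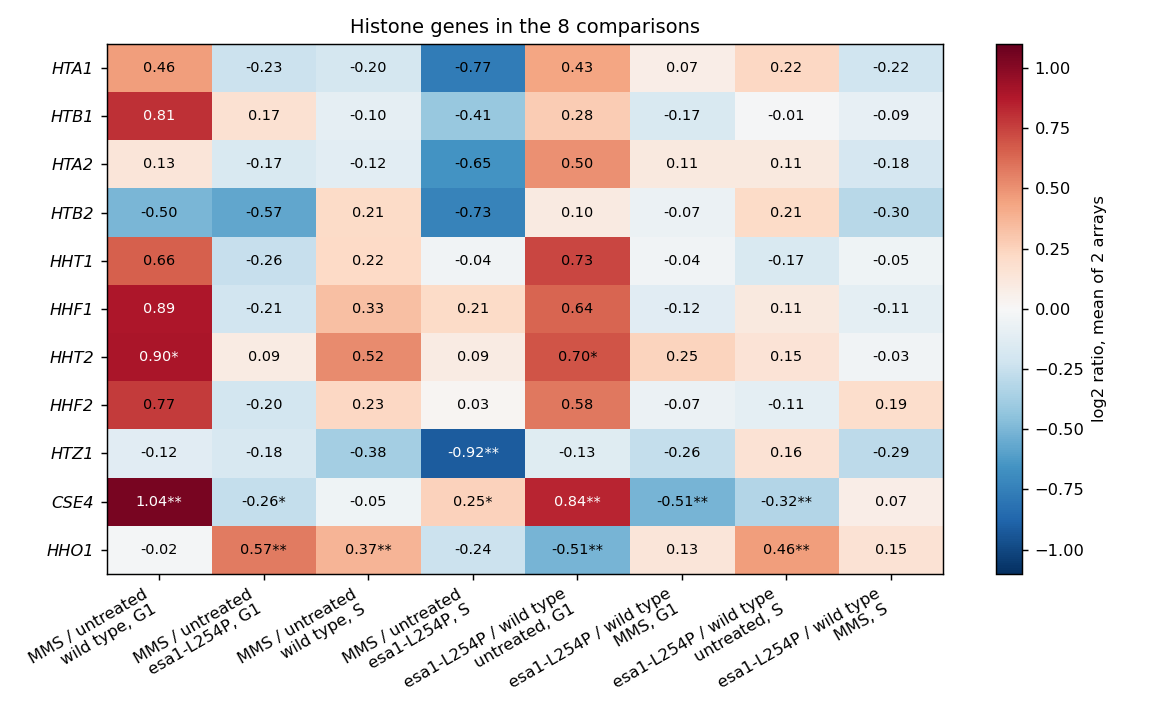
Mean log2 ratio over the 2 arrays of each comparison (columns) for the 10 histone genes and the linker histone gene HHO1 (rows). A double asterisk marks an adjusted p under 0.05 in limma, and a single one marks a gene that passed only with the replicate number as a block. The 8 core genes carry no double asterisk.

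The core genes were first read in wild-type G1 cells given MMS. At the HHT1-HHF1 locus, HHT1 (histone H3) gave 0.54 on replicate 1 and 0.77 on replicate 2, a mean of 0.66. HHF1 (histone H4) gave 0.96 and 0.82, a mean of 0.89. At HHT2-HHF2 both genes were also above 0 on both arrays: HHT2 gave 1.27 and 0.52 (mean 0.90). HHF2 gave 0.81 and 0.72 (mean 0.77). The 4 H3 and H4 genes therefore lay on the same side on both arrays, with HHT2 alone differing between its arrays by more than its fellow genes.

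The H2A and H2B genes of that comparison were less uniform. HTA1 (H2A) gave 0.51 and 0.42, a mean of 0.46, and HTB1 (H2B) gave 0.66 and 0.96, a mean of 0.81. At the other locus HTA2 gave 0.04 and 0.23, a mean of 0.13, and HTB2 gave -0.34 and -0.66, a mean of -0.50. HTB2 was thus the 1 core gene below 0. By locus the means were 0.63 for HTA1-HTB1, 0.77 for HHT1-HHF1, 0.83 for HHT2-HHF2 and -0.19 for HTA2-HTB2. The difference between loci was not tested.

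Across the arrays of this comparison, 10 of the 10 histone genes had both arrays on the same side of 0, as did 79.7% of all genes. For 7 of the 8 core genes both arrays were above 0, against 41.9% of all genes. The core median was 0.71, against 0.02 over all genes. In limma 1 of the 10 histone genes was called, CSE4, where 36.4% of all genes were. For the core genes the adjusted p ran from 0.244 (HTB1) to 0.895 (HTA2). Their standard errors ran from 0.50 for HTB1 to 0.84 for HHT2, against a median of 0.147 over all genes. With a block for the replicate number, and so for the orientation of the dyes, they ran from 0.23 for HHT2 to 0.42 for HHT1, against 0.093. Without the block the 95% half-width of a core gene's mean was 1.12 (HTB1) to 1.88 (HHT2), against a median of 0.33 over all genes. With the block it was 0.52 (HHT2) to 0.94 (HHT1). In the blocked fit HHT2 was called as well (adjusted p = 0.00848), where 56.6% of all genes were.

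**Figure D2:**
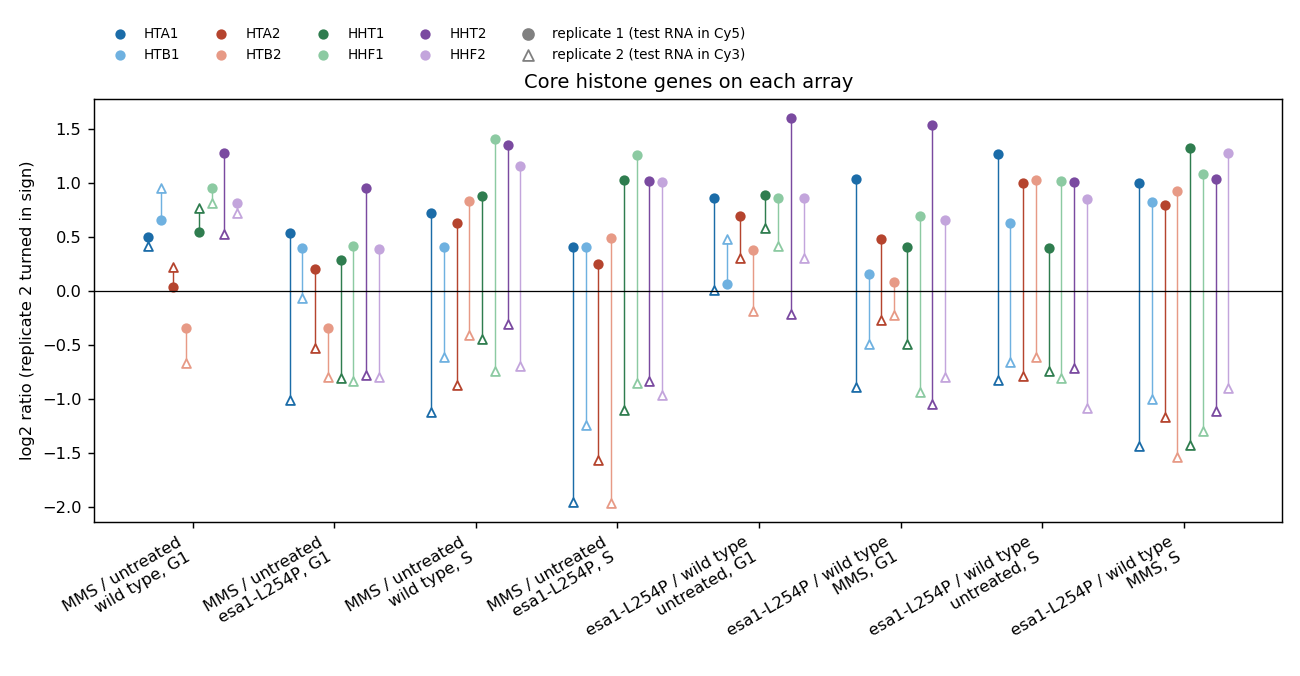
Log2 ratio of the 8 core histone genes on each array, by comparison, with circles for replicate 1, triangles for replicate 2 (turned in sign) and a line joining both arrays of a gene. In wild-type G1 cells with MMS all genes but HTB2 sit above 0 on both arrays, while in the S phase comparisons circles sit above 0 and triangles below it.

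In untreated G1 cells esa1-L254P was compared with wild type against the same kind of wild-type RNA that served as reference above. HHT1 gave 0.89 and 0.58 (mean 0.73), and HHF1 gave 0.86 and 0.42 (mean 0.64). HHF2 gave 0.86 and 0.30 (mean 0.58). HHT2 gave 1.60 and -0.21 (mean 0.70), so its arrays did not share a side.

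The H2A and H2B genes ran lower there. HTA2 gave 0.70 and 0.31 (mean 0.50) and HTA1 gave 0.86 and 0.01 (mean 0.43). HTB1 gave 0.07 and 0.48 (mean 0.28), and HTB2 gave 0.38 and -0.18 (mean 0.10). All 6 core genes whose arrays shared a side were above 0. Over all genes 36.5% had both arrays above 0, and 68.4% shared a side, as did 8 of the 10 histone genes. The core median was 0.54, against 0.03 over all genes. CSE4 was the 1 histone gene called of 10, where 21.9% of all genes were, and with the block HHT2 was called too (adjusted p = 0.0353, where 43.7% of all genes were).

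In the other G1 comparisons the arrays of the core genes mostly lay on opposite sides of 0. With MMS in esa1-L254P G1 cells the core median was -0.20, and 7 of the 8 genes were above 0 on 1 array and below 0 on the other. HTB2 was the exception, at -0.34 and -0.79 (mean -0.57). It was thus below 0 on all 4 G1 arrays that compared MMS with untreated cells, with a mean over both strains of -0.53, short of the threshold without the block (adjusted p = 0.403) and with it (0.132). Of the 10 histone genes 3 had both arrays on the same side, against 70.7% of all genes. None was called in limma, where 28.1% of all genes were, and with the block CSE4 was called, where 51.3% of all genes were. Between the strains in G1 with MMS no core gene had both arrays on the same side, and 2 of the 10 histone genes did, against 54.2% of all genes. The core means ran from -0.17 (HTB1) to 0.25 (HHT2), and 1 histone gene, CSE4, was called, where 10.4% of all genes were.

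In S phase no core gene had both arrays on the same side in any of the 4 comparisons. With MMS in wild type the core means ran from -0.20 (HTA1) to 0.52 (HHT2), with a median of 0.21. None of the 10 histone genes was called there, where 38.9% of all genes were, and 1 of 10, HTZ1, had arrays on the same side, against 82.5% of all genes. With MMS in esa1-L254P the core median was -0.23. HTA1 gave 0.41 and -1.95 (mean -0.77), HTB2 gave 0.49 and -1.96 (mean -0.73) and HTA2 gave 0.25 and -1.56 (mean -0.65). The H3 and H4 genes stood between -0.04 (HHT1) and 0.21 (HHF1). Of the 10 genes 1 was called, HTZ1, where 33.2% of all genes were, and 2 had arrays on the same side, against 71.2% of all genes. With the block CSE4 joined HTZ1, where 55.6% of all genes were called.

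Between the strains in S phase the core means lay close to 0. In untreated cells they ran from -0.17 (HHT1) to 0.22 (HTA1), with a median of 0.11. There 1 of 10 histone genes, CSE4, was called, where 21.6% of all genes were, and 1 of 10 had arrays on the same side, against 67.9% of all genes. With MMS they ran from -0.30 (HTB2) to 0.19 (HHF2), with a median of -0.10. No histone gene was called in that comparison, where 0.0737% of all genes were, and 2 of 10 had arrays on the same side, against 36.6% of all genes.

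All 8 core genes carried a dye term, the mean Cy5 over Cy3 ratio that does not depend on which RNA bore which dye. Replicate 1 always had the test RNA in Cy5, so the term cannot separate the dye from the replicate number. It was 0.89 for HHT2, 0.82 for HTA1, 0.75 for HHF1 and 0.70 for HHF2. HTB2 had 0.59, HHT1 0.59, HTA2 0.55 and HTB1 0.39. All 8 passed the test of that term in limma, with adjusted p between 2.39e-05 (HHT2) and 0.032 (HTB1), where 53.0% of all genes passed in either direction and 25.4% above 0. CSE4 passed with -0.08 (adjusted p = 0.00648), and HTZ1 did not (0.08, adjusted p = 0.442). Without the turn in sign, each core gene had more signal in Cy5 on 14 or 15 of the 16 arrays.

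For every core gene but HTB2, the arrays on which that pattern failed held the same RNA kind in Cy5. HTB2 instead was below 0 on replicate 1 of MMS in wild-type G1 and in esa1-L254P G1 cells, at -0.34 on each. The core median of Cy5 over Cy3 was -0.62 and -0.31 on the 2 arrays that had untreated wild-type G1 RNA in Cy5, and between 0.40 and 1.23 on all arrays without that RNA. On the 2 arrays that had it in Cy3 the median was 0.60 and 0.86, inside that range. Thus the comparisons in which both arrays shared a side for most core genes were those with untreated wild-type G1 RNA as the reference. There the core median of replicate 2 departed from the dye pattern while that of replicate 1 stayed inside it. In the comparison of MMS with untreated wild-type G1 cells, the part of the core ratios that changed sign with the dyes had a median of 0.04. It was 0.25 between the strains in untreated G1 and 0.57 to 1.14 in the other 6 comparisons. Over 4062 other genes, the part that changed sign with the dyes was regressed in each comparison on its mean over the other comparisons. The slope was 0.632 for MMS in wild-type G1 cells, the lowest of the 8, and 1.03 between the strains in untreated G1. Whether dye or RNA set the values on the 2 arrays with untreated wild-type G1 RNA in Cy5 was not tested.

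**Figure D3:**
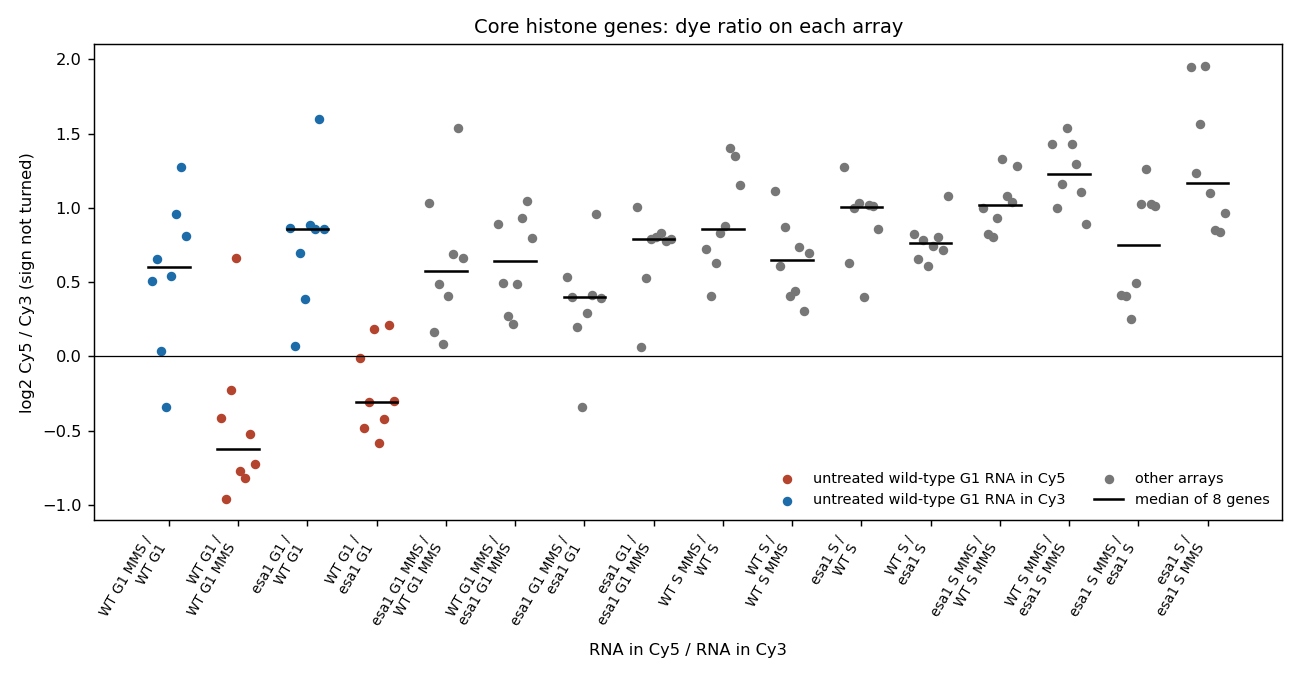
Log2 Cy5 over Cy3, sign not turned, of the 8 core histone genes (points) and their median (bar) on each of the 16 arrays, labelled with the RNA in Cy5 over the RNA in Cy3. The medians are above 0 on all arrays but the 2 with untreated wild-type G1 RNA in Cy5, at -0.62 and -0.31.

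CSE4 had the smallest standard error of the 10 genes, 0.10 in every comparison, with a 95% half-width of 0.22. With MMS in wild-type G1 cells it gave 1.05 and 1.03. Both arrays stood far above 0 and nearly coincided, and the mean of 1.04 ± 0.10 (SE, n = 2 arrays), a 2.06-fold rise, had an adjusted p of 6.97e-05 in limma. In esa1-L254P G1 cells it gave -0.38 and -0.14, both below 0, with a mean of -0.26 (adjusted p = 0.0818, with the replicate block 0.00432). The strain difference of this response, formed over the 8 G1 arrays, was -1.32 ± 0.10 (adjusted p = 1.23e-05). CSE4 was the 1 histone gene called in it, where 41.8% of all genes were. With the block HHT2 (-0.63, adjusted p = 0.0376) and HHF1 (-0.93, adjusted p = 0.048) were called too, where 63.0% of all genes were.

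In S phase CSE4 gave -0.13 and 0.03 with MMS in wild type, on either side of 0 (mean -0.05, adjusted p = 0.727). In esa1-L254P it gave 0.13 and 0.38, both above 0, with a mean of 0.25 (adjusted p = 0.0799, with the block 0.00437). The response of wild type in S phase minus that in G1 was -1.09 ± 0.14 (adjusted p = 0.000353), in a test that called 32.2% of all genes. In esa1-L254P it was 0.52 ± 0.14 (adjusted p = 0.0483), in a test that called 10.3%. That call was lost in 7 of 12 alternatives, with adjusted p up to 0.244, among them the leaving out of any 1 of its 4 arrays. The strain difference of the S phase response was 0.35 ± 0.10 (adjusted p = 0.033), in a test that called 22.6% of all genes, and was lost in 9 of 17 alternatives, with adjusted p up to 0.112, 6 of which left out 1 array.

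Between the strains CSE4 gave 0.71 and 0.96 in untreated G1 cells, both above 0. The mean was 0.84 ± 0.10 (adjusted p = 0.000601). In G1 with MMS it gave -0.61 and -0.41, both below 0, with a mean of -0.51 ± 0.10 (adjusted p = 0.0142). That call was lost without replicate 1 (-0.41, adjusted p = 0.173) and without replicate 2 (-0.61, adjusted p = 0.0546), and with the G1 arrays alone (adjusted p = 0.082). In untreated S phase it gave -0.42 and -0.22, both below 0, with a mean of -0.32 ± 0.10 (adjusted p = 0.0483). Without replicate 1 this was -0.22 (adjusted p = 0.436) and without replicate 2 it was -0.42 (adjusted p = 0.125). In S phase with MMS CSE4 gave 0.03 and 0.12 (mean 0.07), which did not pass. The untreated strain difference in S phase minus that in G1 was -1.16 ± 0.14 (adjusted p = 0.000267), in a test that called 33.6% of all genes. The same difference with MMS was 0.58 (adjusted p = 0.0972, in a test that called 0.516% of all genes), and with the block it was called (adjusted p = 0.00789, where 11.5% of all genes were).

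**Figure D4:**
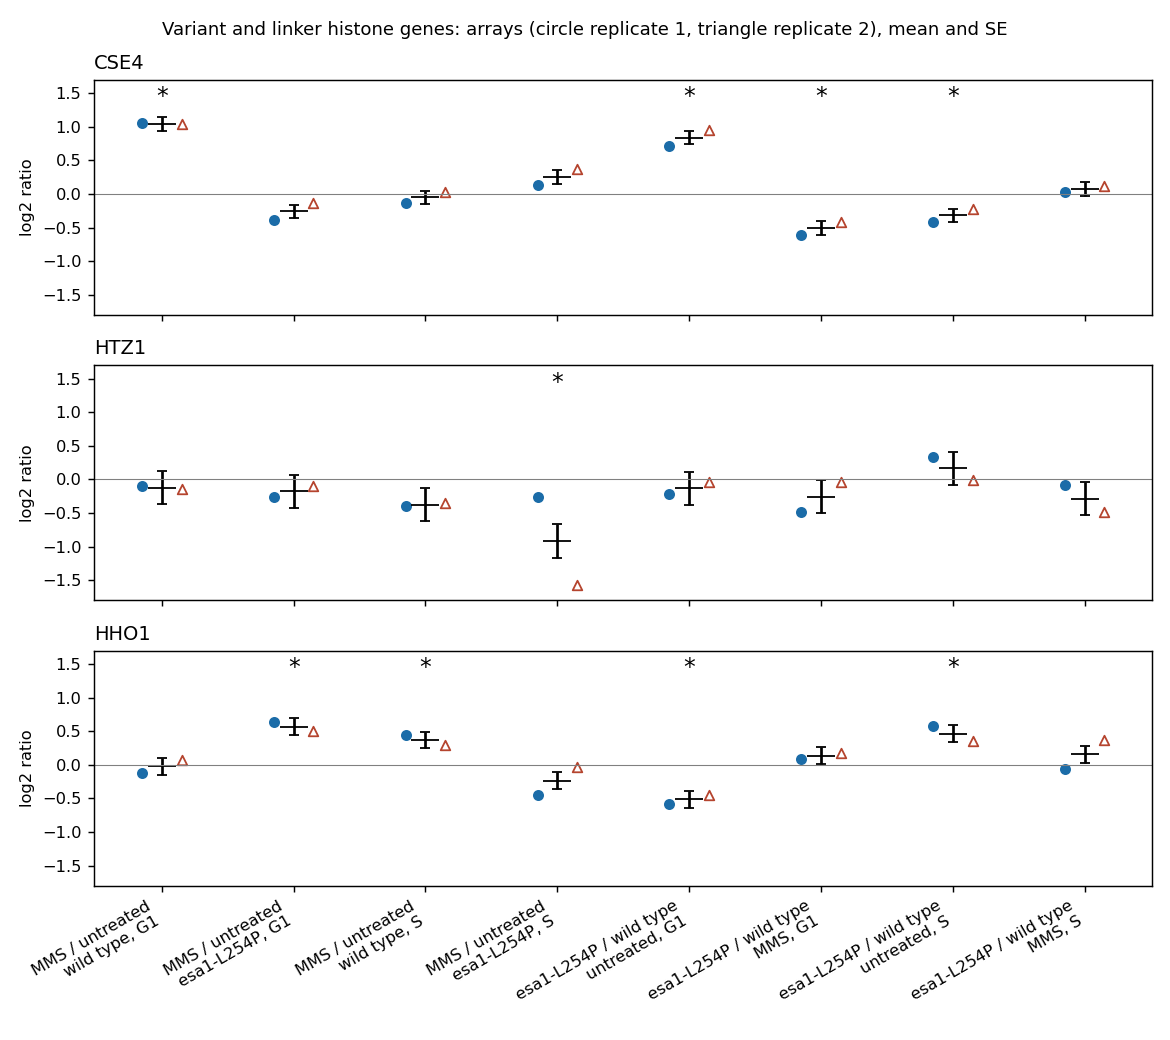
Log2 ratios of CSE4, HTZ1 and HHO1 on each array (circles for replicate 1, triangles for replicate 2, turned in sign) with the mean and its standard error (black), by comparison. An asterisk marks an adjusted p under 0.05 in limma. The 2 CSE4 points nearly coincide at 1.05 and 1.03 in wild-type G1 cells with MMS, and the HTZ1 points of esa1-L254P S phase cells with MMS lie apart at -0.26 and -1.57.

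Closing the loop of comparisons in a phase gives each RNA kind a level over untreated wild-type cells of that phase. In G1 the order of CSE4 was untreated wild type (0 by construction), esa1-L254P with MMS (0.55 ± 0.09), untreated esa1-L254P (0.83 ± 0.08) and wild type with MMS (1.05 ± 0.08). The upper neighbours, which no array compared directly, differed by 0.23 ± 0.09 (adjusted p = 0.1, with the block 0.00516). In S phase the levels were -0.30 ± 0.08 in untreated esa1-L254P, -0.07 ± 0.08 in wild type with MMS and -0.02 ± 0.09 in esa1-L254P with MMS. The levels of both MMS-treated strains lay within their errors of each other and of untreated wild type. All 3 G1 levels rest on the single untreated wild-type G1 RNA kind as their zero, and the comparisons behind them share arrays. The sum of the CSE4 comparisons round the loop, which is 0 without error, was 0.04 in G1 and -0.09 in S phase, against a median size of 0.11 in both phases over all genes. For the core genes it lay between -0.36 (HHT2) and 0.10 (HTB2) in G1 and between -0.51 (HHF2) and 0.09 (HHF1) in S phase.

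For the core genes the loop gave G1 levels of 0.32 (HTB1 in untreated esa1-L254P) to 0.97 (HHT2 in esa1-L254P with MMS) at the HTA1-HTB1, HHT1-HHF1 and HHT2-HHF2 loci in all 3 other RNA kinds. HTA2 lay at 0.16 to 0.48. HTB2 lay at 0.08 in untreated esa1-L254P and at -0.48 and -0.52 in the MMS-treated cells of both strains. In S phase the core levels ran from -0.48 (HTA1 in esa1-L254P with MMS) to 0.46 (HHT2 in wild type with MMS). The standard errors of these levels were 0.40 to 0.77 in the model without the block, and no core level passed there, where 30.6% to 48.8% of all genes did. With the block they were 0.19 to 0.38. Then 4 of the 8 core genes passed in wild-type G1 cells with MMS, where 64.8% of all genes did: HTB1 (0.76, adjusted p = 0.037), HHT2 (0.81, adjusted p = 0.00259), HHF1 (0.80, adjusted p = 0.0271) and HHF2 (0.69, adjusted p = 0.0406). HHT2 also passed in untreated esa1-L254P G1 cells (0.79, adjusted p = 0.00429), in esa1-L254P G1 cells with MMS (0.97, adjusted p = 0.00273) and in wild-type S phase cells with MMS (0.46, adjusted p = 0.0469). It was the 1 core gene of 8 to do so in each, where 52.6%, 56.2% and 66.4% of all genes passed.

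**Figure D5:**
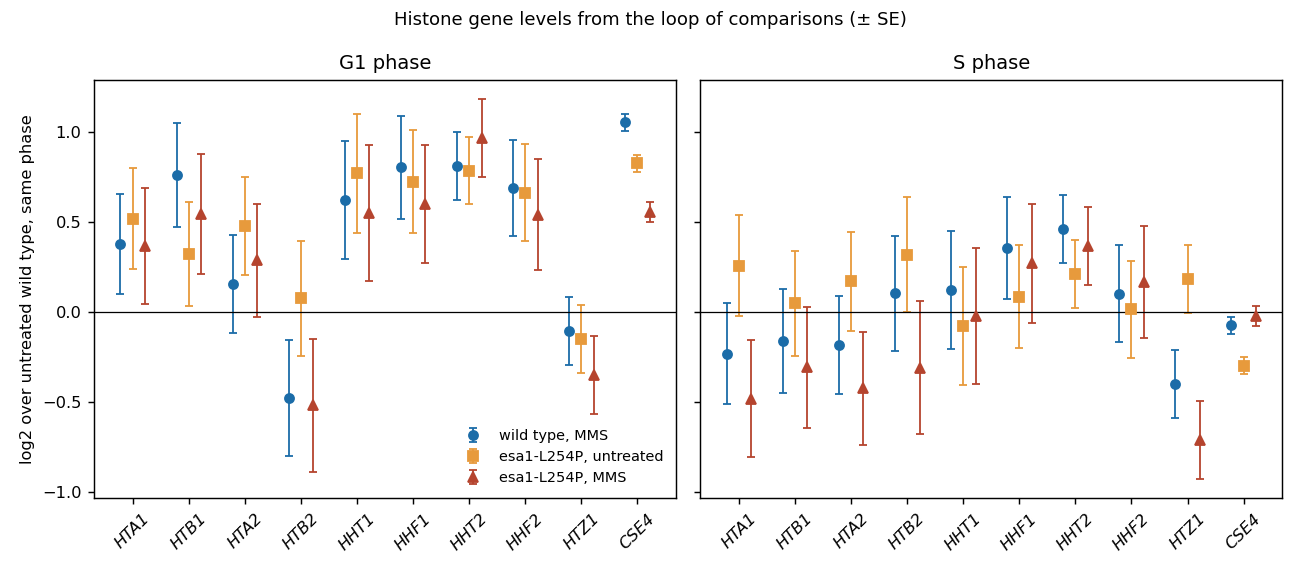
Log2 level of each histone gene over untreated wild-type cells of the same phase (0), from a model of the 4 comparisons of a phase as a loop with the replicate number as a block, with standard errors. In G1 CSE4 stands at 1.05, 0.83 and 0.55, and HTB2 is the core gene below 0 in both strains with MMS.

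HTZ1 (H2A.Z) was called in 1 of the 8 comparisons. With MMS in esa1-L254P S phase cells it gave -0.26 and -1.57, both below 0 but 1.31 apart. The mean was -0.92 ± 0.25 (adjusted p = 0.0175), a fall to 0.529 of the untreated level. Without replicate 2 the value was -0.26, and the call was lost. It was also lost with the last spot alone (-0.76, adjusted p = 0.0881) and with the S phase arrays alone (adjusted p = 0.076). In wild type it gave -0.40 and -0.36, both below 0, with a mean of -0.38 (adjusted p = 0.266). Over both strains the S phase response was -0.65 ± 0.17 (adjusted p = 0.0117), in a test that called 48.4% of all genes. This call was lost in 4 of 13 alternatives. They were the last spot alone (adjusted p = 0.0663), the S phase arrays alone (adjusted p = 0.0545), and leaving out replicate 1 of wild type (-0.64) or the array at -1.57 (-0.32).

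In G1 HTZ1 stayed near 0. With MMS it gave -0.10 and -0.15 in wild type (mean -0.12) and -0.26 and -0.10 in esa1-L254P (mean -0.18). Between the strains it gave -0.22 and -0.04 in untreated G1 cells (mean -0.13) and -0.48 and -0.04 in G1 with MMS (mean -0.26). In S phase it gave 0.34 and -0.01 untreated (mean 0.16) and -0.08 and -0.49 with MMS (mean -0.29). None of these passed the test. On the loop the S phase levels of HTZ1 over untreated wild type were 0.19 ± 0.19 in untreated esa1-L254P, -0.40 ± 0.19 in wild type with MMS and -0.71 ± 0.22 in esa1-L254P with MMS, the last with an adjusted p of 0.0235.

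HHO1, the linker histone H1 gene, was followed beside the 10. It rose with MMS in esa1-L254P G1 (0.57, adjusted p = 0.00837) and in wild-type S phase cells (0.37, adjusted p = 0.0399). All genes were called there at 28.1% and 38.9%. In esa1-L254P it was lower in untreated G1 (-0.51, adjusted p = 0.0163) and higher in untreated S phase (0.46, adjusted p = 0.0257). The shares of all genes called there were 21.9% and 21.6%. Each of these HHO1 calls was lost when either array of its comparison was left out, but stood with the replicate block. The untreated G1 difference of HHO1 had the opposite sign to that of CSE4 (0.84).

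The gene lists that follow are read against all 4073 genes. With MMS in wild-type G1 cells 19.5% of all genes rose and 16.9% fell (29.0% and 27.6% with the replicate block). In esa1-L254P G1 cells 13.6% rose and 14.6% fell (23.8% and 27.5%). In S phase 18.2% rose and 20.7% fell in wild type (26.6% and 32.3%), and 16.3% rose and 17.0% fell in esa1-L254P (25.3% and 30.3%). In esa1-L254P over wild type 13.7% were higher and 8.27% lower in untreated G1 cells (24.7% and 19.0%). The shares were 5.38% and 4.98% in G1 with MMS (15.2% and 14.0%), and 9.4% and 12.2% in untreated S phase (18.3% and 21.5%). The counts below are descriptions to be read against these shares.

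Partners of CSE4 were read from a list of chaperone and inner kinetochore genes, 7 of 9 of which were measured. With MMS in wild-type G1 cells, where 19.5% of all genes rose and 16.9% fell, 3 of the 7 rose and none fell. They were SCM3 (0.94), which encodes the chaperone that deposits Cse4, MIF2 (0.89), the CENP-C gene, and OKP1 (0.82) of the COMA complex, and the list median was 0.16. In untreated G1 esa1-L254P cells, against the same reference RNA kind, 3 were higher and none lower, where 13.7% and 8.27% of all genes were. MIF2 was higher by 0.86, SCM3 by 0.73 and OKP1 by 0.70, with a list median of 0.18. With MMS in esa1-L254P G1 cells 2 fell, MIF2 (-0.43) and AME1 (-0.39). In G1 with MMS, MIF2 was lower in esa1-L254P (-0.49), and with the block 1 gene of the list was higher and 4 were lower. In untreated S phase cells 3 were higher in esa1-L254P, among them CTF19 (1.28) and CEP3 (0.40), and 3 lower, among them SCM3 (-0.49) and OKP1 (-0.43). With MMS in S phase OKP1 (-0.38) and AME1 (-0.37) fell in wild type, and in esa1-L254P SCM3 (0.56) and MIF2 (0.40) rose while CEP3 (-0.42) fell.

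Genes that set histone transcription were read from a list of 11 regulators. With MMS in wild-type G1 cells 4 rose and 1 fell, against 19.5% and 16.9% of all genes, and with the block 7 rose and 3 fell, against 29.0% and 27.6%. RTT106 (0.53) and HPC2 (0.52), of the repressing side, and SPT21 (0.51) and YTA7 (0.45) rose, and the list median was 0.29. Also of the repressing side, HIR2 fell (-0.38), and with the block HIR3 (-0.32) and HIR1 (-0.20) fell too. These 3 were named after their values were seen. In untreated G1 4 were higher in esa1-L254P and 2 lower (8 and 2 with the block), against 13.7% and 8.27% of all genes. RTT106 (0.62), HPC2 (0.46), SPT21 (0.45) and the MBF subunit gene MBP1 (0.40) were the ones higher, and the median was 0.39. With MMS RTT106 fell in esa1-L254P G1 cells (-0.41), and with the block 3 regulators rose and 2 fell. Between the strains in G1 with MMS RTT106 (-0.36) and SPT21 (-0.32) were lower in esa1-L254P. In untreated S phase 5 were lower in esa1-L254P, led by YTA7 (-0.57) and RTT106 (-0.42), where 12.2% of all genes were lower. With the block 6 were lower and 1 was higher, SPT10 (0.41, adjusted p = 0.00365, named after its value was seen), where 21.5% of all genes were lower and 18.3% higher. With MMS in S phase 1 rose and 4 fell in wild type (3 and 5 with the block), led by MBP1 (-0.73). In esa1-L254P 2 rose and 2 fell (4 and 3 with the block), and SWI4, the SBF subunit gene, rose by 1.16 and SPT21 by 0.51.

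Of 14 histone chaperone and assembly genes 3 rose and 3 fell with MMS in wild-type G1 cells, shares near those of all genes (19.5% and 16.9%), and with the block 6 rose and 5 fell. POB3 of the FACT complex (0.76), RLF2 of CAF-1 (0.63) and HAT1 (0.61) rose and VPS75 (-0.56) fell. Neither complex moved as a whole: CAC2 of CAF-1 fell (-0.32), and SPT16 of FACT (0.02) and MSI1 of CAF-1 (-0.16) did not pass without the block. These were named after their values were seen. In wild-type S phase cells with MMS 3 rose and 1 fell (7 and 1 with the block), against 18.2% and 20.7% of all genes, with CAC2 (0.83), HIF1 (0.58) and ASF1 (0.57) up and SPT6 (-0.49) down. RLF2 was higher in esa1-L254P in untreated G1 (0.71) and lower in untreated S phase (-0.29).

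Of the SWR1 complex, which deposits H2A.Z, 11 of 13 listed genes were measured. With MMS 5 rose and none fell in wild-type G1, against 19.5% and 16.9% of all genes, led by YAF9 (0.62), whose product also sits in NuA4, and BDF1 (0.42). In wild-type S phase 1 rose and 4 fell (2 and 6 with the block), against 18.2% and 20.7% of all genes, with SWC5 (0.57) up and BDF1 (-0.72) and SWC3 (-0.49) down. In esa1-L254P S phase cells, where HTZ1 fell, 1 rose and 3 fell, against 16.3% and 17.0% of all genes, and SWC3 (-0.39) had the largest fall. Of 4 genes for histone message decay 3 fell with MMS in S phase in both strains, against 20.7% of all genes in wild type and 17.0% in esa1-L254P. TRF5 (-0.83 and -0.50), PAP2 (-0.70 and -0.72) and RRP6 (-0.59 and -0.85) fell in wild type and esa1-L254P respectively.

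Transcripts that vary with the cell cycle were read from a mitotic and a late G1 list. With MMS in wild-type G1 cells 4 of 13 measured genes of the mitotic CLB2 cluster rose and none fell (6 and 0 with the block), against 19.5% and 16.9% of all genes. They were led by SPO12 (1.20), a regulator of mitotic exit, and SWI5 (0.75), and the list median was 0.26. In untreated G1 3 were higher in esa1-L254P (6 with the block), against 13.7% of all genes, led by SPO12 (1.14), with a median of 0.19. Of 18 late G1 genes driven by SBF and MBF 2 rose and 5 fell with MMS in wild-type G1, with RNR1 (-1.20) and CLN2 (-0.99) down. In untreated G1 esa1-L254P cells 4 were higher and 1 lower. With MMS in esa1-L254P G1 cells 1 late G1 gene rose and 8 fell, against 13.6% and 14.6% of all genes, and no CLB2 cluster gene was called. With the block 2 late G1 genes rose and 11 fell and 3 CLB2 cluster genes fell, against 23.8% and 27.5% of all genes.

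In S phase with MMS all 13 CLB2 cluster genes fell in both strains, against 20.7% of all genes in wild type and 17.0% in esa1-L254P, with medians of -1.93 and -1.71. Of the 18 late G1 genes 13 rose in wild type and 10 in esa1-L254P, against 18.2% and 16.3% of all genes, with medians of 0.65 and 0.53. None fell without the block, while with it 14 rose and 1 fell in wild type and 12 rose and 2 fell in esa1-L254P. The core histone medians beside them were 0.21 and -0.23, and no core gene was called. In untreated S phase 5 CLB2 cluster genes were lower in esa1-L254P, led by SPO12 (-1.09), where CSE4 was lower too, against 12.2% of all genes. There 4 late G1 genes were higher, led by CLN2 (0.84), against 9.4% of all genes, and with the block 6 were higher and 3 lower. The part of cell cycle position in the values of the histone genes was not tested.

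The genes whose 8 comparison means were most like the mean of the 8 core genes were found by Pearson correlation over the 8 comparisons, which share RNA kinds and arrays. They were SEC22 (0.951), CKB2 (0.942), PRM3 (0.938), MAC1 (0.933), ECM15 (0.925) and RHO1 (0.921). Their sizes differed: with MMS in wild-type G1 cells PRM3 stood at 1.12, ECM15 at 0.70 and SEC22 at 0.15. ECM15 is the gene next to HTB2 on its other side, and its values in that comparison and in untreated G1 esa1-L254P cells (0.62) were above those of HTB2 (-0.50 and 0.10). None of the 6 was called in the comparison of MMS with untreated wild-type G1 cells, where 36.4% of all genes were. With the block 4 were called, where 56.6% of all genes were: CKB2 (adjusted p = 0.0476), PRM3 (0.0134), MAC1 (0.0293) and ECM15 (0.0192).

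The spots of a histone gene were more than 0.5 apart in 13 of 160 array values, 4 of them for HTA2, 3 each for HTA1 and HHF2, 2 for HHT2 and 1 for HTZ1. The median gap was 0.139. For HTZ1 this was replicate 1 of MMS in esa1-L254P S phase cells, the array of the smaller fall.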

How the data were processed

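The members and gene lists were chosen with earlier results of these data known. The deposited values are log ratios, 1 table per array, taken as log2 because limma writes that base. The submitters' processing notes name R 3.1.1 and limma 3.0. How background and dye intensity were corrected before deposit is not given in the sources used here. Whether dye-swapped arrays shared an RNA preparation is not stated either. Column medians lay between -0.0058 and 0.0048. The row order did not match the platform's probe numbers, under which duplicate spots correlated at -0.0302 to 0.0257, so 11328 orderings were scored on 2035 genes. The best scored 1.13 and the next 0.0331, and in 2035 other genes duplicates then correlated at a median of 0.913. Of 15744 spots, 7592 without a single gene symbol were left out, and the rest were averaged to 4073 genes. Of their symbols 3940 were current, 125 updated through the R64 gene table and 8 kept.

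With R 4.3.3 and limma 3.58.1, 1 model over all 16 arrays had 1 coefficient per comparison (8 residual degrees of freedom, prior 1.701, median standard error 0.147). Simulated data with independent noise were run with and without the replicate block, but a pass mark was set only for the fit with it. Adjustment was by Benjamini-Hochberg within each contrast. Alternatives were the replicate block, median centring, scaling, single spots, separate phases, a loop model, robust variances and leaving out each array; a loop model with the block was added after the data were seen. Deviations of same-numbered arrays correlated at 0.619 to 0.892 (28 pairs of comparisons), so the numbers, which are also the dye orientation, pair the arrays. Untransformed, the arrays of a comparison correlated at -0.163 to -0.716 in 6 comparisons, but at 0.215 and 0.612 between the strains with MMS in G1 and S, so those directions rest on the stated dyes. The number of arrays limits the precision. The rule for names gave all 10 histone genes in every comparison, up to 4 called genes per list and comparison, the 6 most alike genes, ESA1, MAG1 and RNR3; examples were drawn from these. Listed genes not measured (5) were left out. No promoter or protein sequence was used.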

Additional observations from a re-analysis of the deposited data

Results flagged for a closer look

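These results are listed because a test of the difference between phases or strains passed an adjusted p under 0.05 in limma. For CSE4 the MMS response in S phase minus that in G1 was -1.09 in wild type (adjusted p = 0.000353) and 0.52 in esa1-L254P (adjusted p = 0.0483). Its untreated strain difference in S phase minus that in G1 was -1.16 (adjusted p = 0.000267). The MMS response of CSE4 in esa1-L254P minus that in wild type was -1.32 in G1 (adjusted p = 1.23e-05) and 0.35 in S phase (adjusted p = 0.033). Both 0.52 and 0.35 were lost in several alternatives, given with the results above.

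For HHO1 the MMS response in S phase minus that in G1 was -0.80 in esa1-L254P (adjusted p = 0.0178). The strain difference in S phase minus that in G1 was 0.98 in untreated cells (adjusted p = 0.00213) and 0.50 over both treatments (adjusted p = 0.0421). The MMS response in esa1-L254P minus that in wild type was 0.62 in G1 (adjusted p = 0.00309) and -0.46 in S phase (adjusted p = 0.0262). In the order given, these HHO1 tests called 10.3%, 33.6%, 6.83%, 41.8% and 22.6% of all genes. Some of these HHO1 calls were lost when 1 array was left out. No group held 4 or more arrays, so no array was tested against its group for standing apart.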

How the results depend on the processing

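CSE4 kept its direction and its call in every alternative run for 6 results: MMS in wild-type G1 (0.85 to 1.05), esa1-L254P over wild type in untreated G1 (0.71 to 0.96), the MMS response in G1 over both strains (0.30 to 0.45), the S minus G1 differences in wild type (-1.17 to -0.89) and untreated cells (-1.28 to -1.03), and the strain difference of the G1 response (-1.39 to -1.26). No called value of a histone gene changed sign in any alternative.

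The number of histone genes called moved as follows. With the replicate block it was 2 in place of 1 for MMS in wild-type G1, MMS in esa1-L254P S phase and the strains in untreated G1, and for the MMS response over both strains in G1 and in S phase. It was 3 in place of 1 for the strain difference of the G1 response, and 1 in place of 0 for MMS in esa1-L254P G1, the strains in G1 over both treatments, the S minus G1 MMS response over both strains, and the S minus G1 strain difference with MMS and over both treatments. The block changed no other such count. The loop model gave 1 in place of 0 for MMS in esa1-L254P G1, where 39.8% of all genes were called. It gave the same for the S minus G1 MMS response over both strains (21.3% of all genes) and the S minus G1 strain difference with MMS (4.32%). For MMS in esa1-L254P S phase it gave 2 in place of 1 (45.5%). With the block as well, it gave 5 for MMS in wild-type G1, 4 for the strain difference of the G1 response, 3 for MMS in esa1-L254P S phase and 2 for the strains in untreated G1, each in place of 1. That model also gave 2 for the MMS response over both strains in either phase and for the strains in G1 over both treatments, and 1 in place of 0 for MMS in esa1-L254P G1, MMS in wild-type S phase, the strains in S phase over both treatments and 3 S minus G1 differences (MMS response over both strains, strain difference with MMS and over both treatments). Separate phases gave 2 for MMS in wild-type G1 and the G1 response over both strains, and 0 in place of 1 for MMS in esa1-L254P S phase, the S response over both strains, the strains in G1 with MMS and in untreated S phase, and the strain difference of the S response. Median centring, or the first spot alone, gave 0 in place of 1 for the strains in untreated S phase and the strain difference of the S response. Of all genes 20.8% and 21.5% were called there with median centring, and 16.7% and 16.5% with the first spot. The first spot alone gave 1 in place of 0 for MMS in esa1-L254P G1 (22.9% of all genes). The last spot alone gave 0 for MMS in esa1-L254P S phase (27.1% of all genes), the S response over both strains (42.4%) and the strains in untreated S phase (14.5%). It also gave 0 for the S minus G1 response in esa1-L254P (6.68%), which was 0 too with median centring (9.55%) or scaling (5.72%). Scaling gave 1 in place of 0 for the S minus G1 strain difference with MMS (3.93% of all genes). There, as in the loop model without the block, the share of the 10 histone genes was above that of all genes.

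With the block, alone or in the loop model, the share of the 10 histone genes called stayed under that of all genes in each of these results. All genes were called at 11.5% to 67.3% with the block alone and at 19.1% to 69.5% in the loop model with it, for example 64.8% for MMS in wild-type G1 and 65.8% for the strain difference of the G1 response.

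Leaving out 1 array also moved the number of histone genes called for MMS in esa1-L254P S phase and for the strains in G1 with MMS and in untreated S phase. It moved for the S response over both strains, the S minus G1 responses in esa1-L254P and over both strains, and the strain difference of the S response. In each of these results fewer of all genes were called with an array left out. The arm left with 1 array was assumed to vary like the others. The causes were not tested.

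Calls over all genes, in the reported fit and the block, were 1484 and 2307 for MMS in wild-type G1, 1145 and 2090 in esa1-L254P G1, 1585 and 2399 in wild-type S phase and 1354 and 2265 in esa1-L254P S phase. Between the strains they were 894 and 1779 in untreated G1, 422 and 1193 in G1 with MMS, 880 and 1621 in untreated S phase, and 3 and 97 in S phase with MMS. Over all alternatives these 8 counts ran from 635 to 2641, 418 to 2460, 752 to 2703, 672 to 2627, 321 to 2142, 55 to 1549, 227 to 2001 and 0 to 293.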
